A study of Trichoderma asperellum with 12 samples.

Results

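The comparison set mycelium of Trichoderma asperellum TJ01, a filamentous soil fungus of a genus used in biological control, after 24 h in 1000 µg/mL dichlorvos against mycelium of the same strain after 24 h in 500 µg/mL dichlorvos. Both groups were grown from spores in PD medium, moved to Burk broth with the pesticide and harvested for total RNA, and each was represented by 3 RNA-seq libraries, so 6 of the 12 libraries of the series were compared. No untreated library entered the comparison, and it therefore shows what changed further between the higher doses. Libraries from 100 µg/mL dichlorvos are quoted beside some genes for orientation, without a test. Of the 11647 genes in the table, 8965 had a mean of at least 1 FPKM (sequenced fragments divided by the length of the transcript and by the number of fragments mapped in that library) over the 6 libraries and were tested.

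Dichlorvos is a volatile organophosphate insecticide that blocks acetylcholinesterase in animals. Fungi handle foreign compounds in steps. Monooxygenases, reductases and esterases change the compound, glutathione S-transferases couple it or its products to the thiol of glutathione, and ATP-binding cassette (ABC) pumps move compounds and conjugates out of the cytoplasm. Glutathione is built from cysteine, whose sulfur comes from sulfate through the sulfate assimilation pathway. Thioredoxins, glutaredoxins, catalases and superoxide dismutases keep thiols reduced and remove reactive oxygen. Hydrophobins are small secreted proteins that coat aerial hyphae and spores of filamentous fungi, and chitinases and other glycoside hydrolases remodel the cell wall.

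The 6 libraries were alike in scale. Their FPKM values summed to between 929046 and 958261, and the median over the tested genes lay between 20.1 and 23.3 FPKM. Correlations of log2(FPKM + 1) were 0.971 to 0.984 between libraries of one dose and 0.930 to 0.962 between doses, as a description over genes. The labels number the 3 libraries of a dose, and the study's methods say that experiments were repeated without saying whether each library came from its own culture, so the p-values measure the spread between these libraries, which may be technical. The files hold no read counts, so depth is unknown, and FPKM gives a gene's share of the sequenced RNA, so that fewer expressing cells and less RNA per cell cannot be told apart.

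From 500 to 1000 µg/mL, 643 genes rose (7.17% of the 8965 tested) and 299 fell (3.34%), at a limma adjusted p below 0.05 and a change of more than 1 on the log2(FPKM + 1) scale. This scale understates the change of genes with low FPKM. The counts of list members given below are to be read against these shares of 7.17% and 3.34%. In 927 of the 942 called genes the 3 libraries of one dose did not overlap those of the other, against 40.6% of all genes tested. The median change of all tested genes was 0.10, with 5234 above 0 and 3731 below. When each library was centred on its own median, 512 genes rose and 371 fell, and the share of rises among the calls went from 68.3% to 58.0%. A function was annotated for 5410 of the tested genes, of which 354 rose (6.54%) and 157 fell (2.90%), while 289 (8.13%) and 142 (3.99%) of the 3555 genes without one did so.

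**Figure D1:**
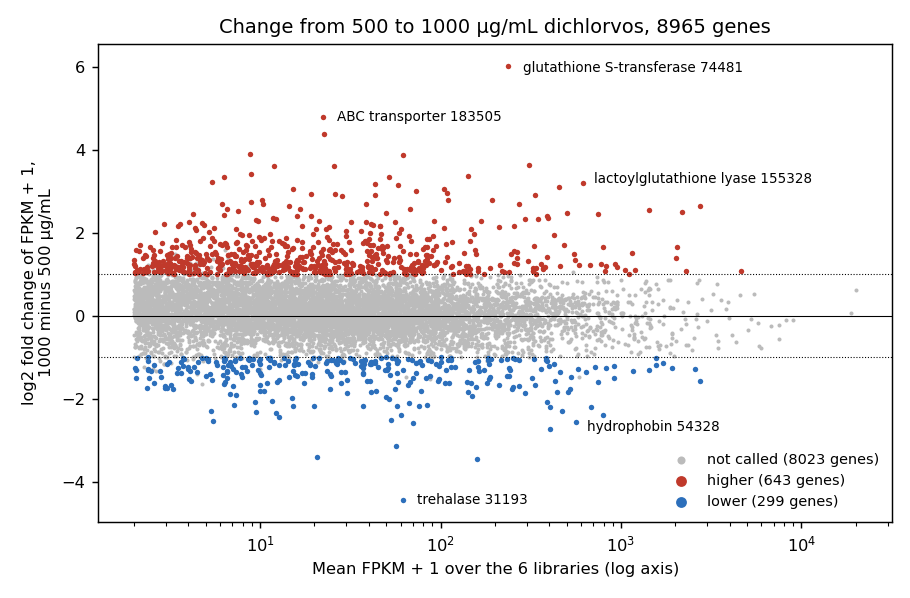
Each point is 1 of the 8965 tested genes, with its mean FPKM + 1 over the 6 libraries on a log axis and its limma log2 fold change (1000 minus 500 µg/mL) on the vertical axis. The 643 genes that rose are red, the 299 that fell are blue, and dotted lines mark a change of 1 in either direction; the glutathione S-transferase jgi_Trias1_74481 lies highest at 6.04 and the trehalase jgi_Trias1_31193 lowest at -4.45.

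Glutathione S-transferases, which couple glutathione to reactive compounds, were the enzymes of glutathione metabolism that rose. Of the 28 tested members of the glutathione list, 8 rose, all of them annotated as glutathione S-transferases, and none fell, with a median change of 0.68 against 0.10 for all genes. None was lower at an unadjusted limma p below 0.05 either. The strongest was jgi_Trias1_74481. It stood at 3.54, 6.51 and 9.44 FPKM at 500 µg/mL and at 416, 521 and 461 FPKM at 1000 µg/mL. The doses were far apart, the mean being 71.7 times higher at 1000 µg/mL, and at 100 µg/mL the same gene stood at 0.53 to 0.55 FPKM. The change was 6.04 ± 0.27 (log2(FPKM + 1), SE, n = 3 per dose; limma adjusted p = 1.05e-05), the largest rise among annotated genes.

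The remaining transferases ranged from low to abundant. The gene jgi_Trias1_62326 went from 135, 115 and 133.7 FPKM to 643, 700.03 and 627 FPKM, a change of 2.35 (limma adjusted p = 2.19e-05). The most abundant member of the list, jgi_Trias1_55913, stood at 414, 335 and 466 FPKM at 500 µg/mL and at 923, 1047 and 855 FPKM at 1000 µg/mL, and rose by 1.22 ± 0.17 (limma adjusted p = 0.00156). For both genes every library at 1000 µg/mL was above every library at 500 µg/mL. Low at 500 µg/mL were jgi_Trias1_93559, at 1.76 to 2.40 FPKM against 20.4 to 37.5 FPKM, and the putative transferases jgi_Trias1_84683 and jgi_Trias1_30288, which rose by 2.58 and 2.34. The transferases jgi_Trias1_49863 and jgi_Trias1_82025 rose by 1.36 and 1.54. All 8 calls held when any 1 library was left out, and 4 of them were also made by the NOISeq rule of the study's methods (a probability above 0.8 and a change of more than 1 on the log2 scale).

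The enzymes that make and recycle glutathione were below the thresholds of the call. Glutamate-cysteine ligase, which joins glutamate to cysteine in the first step of synthesis, had a change of 0.32 for the catalytic gene jgi_Trias1_128800 (limma adjusted p = 0.253) and of 0.60 for jgi_Trias1_230294 (limma adjusted p = 0.0458). Glutathione synthase, jgi_Trias1_126142, had a change of 0.46 (limma adjusted p = 0.152). Glutathione reductase, jgi_Trias1_56344, which returns oxidised glutathione to its thiol form, was at 221, 226 and 240.1 FPKM and then at 426, 414 and 368 FPKM. Its doses did not overlap and its change of 0.81 passed the p threshold (limma adjusted p = 0.0035) but not the threshold of 1 on the log2 scale. These 4 genes were chosen by their role and not by the rule for named genes.

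**Figure D2:**
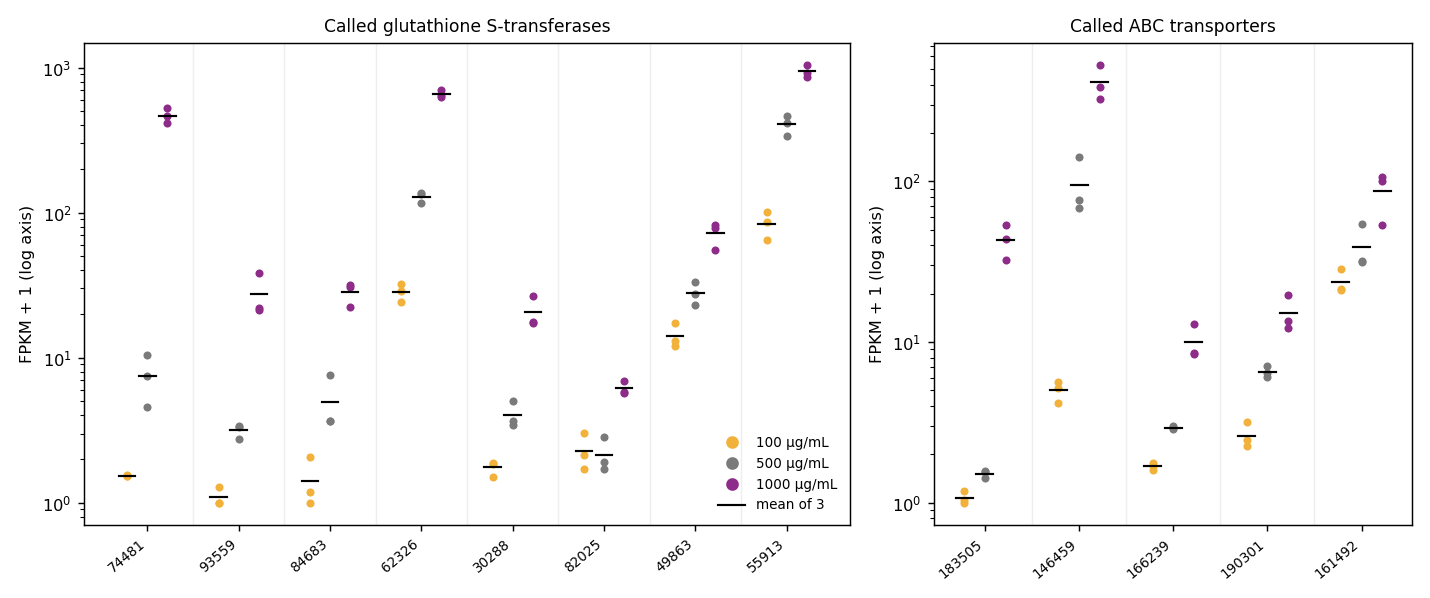
FPKM + 1 on a log axis for the 8 called glutathione S-transferases (left) and the 5 called ABC transporters (right), with a point per library, a bar for the mean of 3 libraries and colours for 100, 500 and 1000 µg/mL dichlorvos. The numbers under the axis are the last part of each gene identifier; jgi_Trias1_74481 goes from 3.54 to 9.44 FPKM at 500 µg/mL to 416 to 521 FPKM at 1000 µg/mL, and jgi_Trias1_183505 from 0.42 to 0.58 to 31.3 to 52.7 FPKM.

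Of 31 tested ABC transporters 5 rose and none fell, with a median change of 0.48 (1 of the 31 was lower at an unadjusted limma p below 0.05, and the NOISeq rule called none lower). The rises numbered 3 with a pseudocount of 5 and 2 under the NOISeq rule. Subfamily G holds the pleiotropic drug resistance (PDR) pumps, which in yeast export many unrelated drugs. The subfamily G gene jgi_Trias1_183505 stood at 0.42, 0.58 and 0.55 FPKM at 500 µg/mL and at 42.8, 52.7 and 31.3 FPKM at 1000 µg/mL. It was below 1 FPKM at the lower dose and 81.8 times higher on average at the upper one, with a change of 4.81 ± 0.23 (limma adjusted p = 1.05e-05). At 100 µg/mL it was listed at 0 to 0.19 FPKM. A second subfamily G gene, jgi_Trias1_146459, went from 67.7, 76.0 and 140.02 FPKM to 388, 532 and 326 FPKM, a change of 2.17 (limma adjusted p = 0.00113). The multidrug resistance (subfamily B) genes jgi_Trias1_166239 and jgi_Trias1_190301 rose by 1.74 and 1.18 from less than 7 FPKM. The fifth call, jgi_Trias1_161492, rose by 1.13 with overlapping libraries and was lost in 4 of the 6 fits that left out 1 library, and without replicate 2 of 1000 µg/mL the list had 3 calls. Most abundant was the subfamily F gene jgi_Trias1_31428, of a subfamily without membrane segments, with a change of -0.57 (limma adjusted p = 0.0268) that was not called.

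Major facilitators for drugs and other compounds, many of which use the proton gradient, moved both ways, 4 up and 4 down of 49 tested. These were 8.2% each, against 7.17% and 3.34% of all genes tested. Not all are drug transporters, and among the falls jgi_Trias1_149769 is named as an L-fucose permease. The DHA1 family gene jgi_Trias1_134523 went from 123.2, 186 and 205 FPKM to 474, 577 and 270.1 FPKM, without overlap. The same family's jgi_Trias1_144956 went the other way, from 65.4, 121 and 171 FPKM to 59.6, 16.4 and 30.02 FPKM. Their changes were 1.32 ± 0.29 (limma adjusted p = 0.0116) and -1.80 ± 0.45 (limma adjusted p = 0.02), and both calls were lost without replicate 2 of 1000 µg/mL. With that library left out the list kept 1 rise, and without replicate 2 of 500 µg/mL it had 2 falls. The siderophore transporters jgi_Trias1_62150 and jgi_Trias1_61683, which take up iron chelates, rose by 1.30 and 1.21 from at most 1.27 FPKM.

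Among flavin monooxygenases, old yellow enzymes and quinone reductases 12 of 47 tested rose and 1 fell, with a median change of 0.27. These were 25.5% and 2.1% of the list, against 7.17% and 3.34% of all genes tested. There were 9 rises without replicate 2 of 1000 µg/mL, 8 with a pseudocount of 5 and 5 under the NOISeq rule. The fall was absent with that pseudocount and under that rule. The rise of jgi_Trias1_58621, at most at 2.31 FPKM, was lost in 10 limma alternatives. Old yellow enzymes, annotated as NADPH2 dehydrogenase, reduce activated carbon-carbon double bonds, and 4 of them rose. The strongest, jgi_Trias1_56683, stood at 79.6, 65.7 and 83.6 FPKM at 500 µg/mL and at 502, 664 and 600.1 FPKM at 1000 µg/mL. The doses were separate, with a change of 2.93 ± 0.16 (limma adjusted p = 1.63e-05). The others, jgi_Trias1_435499, jgi_Trias1_76707 and jgi_Trias1_168167, rose by 1.72, 1.46 and 1.33 and stayed at or below 24.4 FPKM. Ring-hydroxylating flavin monooxygenases were the second kind. The salicylate hydroxylase jgi_Trias1_133798 went from 18.6, 15.2 and 19.3 FPKM to 59.9, 75.7 and 48.5 FPKM, and the phenol 2-monooxygenase jgi_Trias1_140627 rose by 2.20. The nitronate monooxygenase jgi_Trias1_59362, which oxidises nitroalkanes, went from 135 to 159 FPKM to 336 to 387 FPKM, and the quinone reductase jgi_Trias1_71200 from 119.8 to 134.5 FPKM to 265 to 332 FPKM. The phenol 2-monooxygenase jgi_Trias1_25168, the most abundant of the list, had a change of -0.22 (limma adjusted p = 0.36) at 973 to 1460.2 FPKM over the 6 libraries, and a dimethylaniline monooxygenase, jgi_Trias1_84461, was the single fall, at -1.19 from under 3 FPKM.

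Aldehyde and ketone reductases and dehydrogenases showed 11 rises and 2 falls among 43 tested. The members that rose were mostly low at 500 µg/mL. The NADP-dependent alcohol dehydrogenase jgi_Trias1_146582 went from 3.90, 3.90 and 7.15 FPKM to 41.3, 57.1 and 35.8 FPKM, a change of 2.95 ± 0.26 (limma adjusted p = 0.000168). The NAD-dependent aldehyde dehydrogenase jgi_Trias1_247125, an enzyme that oxidises aldehydes to acids, went from 3.87, 2.0 and 2.93 FPKM to 17.4, 32.8 and 21.96 FPKM (change 2.65, limma adjusted p = 0.000356). Neither gene's doses overlapped. A putative aryl-alcohol dehydrogenase (jgi_Trias1_55027), 3 sorbose reductases and 2 genes annotated as aflatoxin B1 aldehyde reductase rose by 1.18 to 1.93. The 2 falls were the betaine-aldehyde dehydrogenase jgi_Trias1_59811, at -1.5, and the glycerol 2-dehydrogenase jgi_Trias1_62596, at -1.49, and neither call held without replicate 2 of 1000 µg/mL. Highest in level was the alcohol dehydrogenase jgi_Trias1_150025, at 2034, 2138 and 2791 FPKM and then at 1451, 1500.3 and 1378 FPKM, a change of -0.67 (limma adjusted p = 0.0219) that was too small to be called. With a pseudocount of 5 the list had 5 rises.

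Among 15 tested esterases and lipases 6 rose and 1 fell, with a median change of 0.55. The triacylglycerol lipase jgi_Trias1_43591 went from 15.8, 10.2 and 12.9 FPKM to 38.7, 56.6 and 46.3 FPKM, a change of 1.79 ± 0.21 (limma adjusted p = 0.000632). The cutinase jgi_Trias1_191100, a secreted esterase that cleaves plant cutin and the most abundant of the list, stood at 81.3, 53.1 and 66.9 FPKM and then 145, 286 and 167 FPKM (change 1.51 ± 0.26, limma adjusted p = 0.00396). In both genes the doses were separate. The triacylglycerol lipase that fell, jgi_Trias1_30744, had a change of -1.0 and was lost in 4 of the 6 fits that left out 1 library. The gene jgi_Trias1_311981, annotated as acetylcholinesterase, was chosen for its role. It stood at 2.46, 1.94 and 1.67 FPKM at 500 µg/mL and at 2.36, 3.07 and 2.41 FPKM at 1000 µg/mL. The doses overlapped, with a change of 0.26 (limma adjusted p = 0.468). The study lists further genes under this name. Such genes can fall outside the list used here through its wording, its e-value limit or the FPKM filter. Acetylcholinesterases as a family were not tested.

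Cytochrome P450 enzymes, which insert an oxygen atom into many substrates, held 1 rise and 2 falls among 19 tested. The phenylacetate 2-hydroxylase jgi_Trias1_178916 stood at 112, 93.7 and 72.0 FPKM at 500 µg/mL and at 15.3, 19.0 and 25.6 FPKM at 1000 µg/mL. It fell by 2.16 ± 0.22 on the log2(FPKM + 1) scale (limma adjusted p = 0.000364) with separate doses. The single rise, the C-22 sterol desaturase jgi_Trias1_135300 of ergosterol synthesis, had a change of 1.01 and was lost under 7 limma alternatives and the NOISeq rule. The falls went from 1 (without replicate 1 or 2 of 500 µg/mL) to 5 (without replicate 3 of 500 µg/mL) as single libraries were left out. The P450 with the highest level, jgi_Trias1_359213, annotated as a fused P450 and its reductase, was at 1099, 1009.9 and 536 FPKM and then at 597, 445 and 373 FPKM (change -0.86, limma adjusted p = 0.0548).

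**Figure D3:**
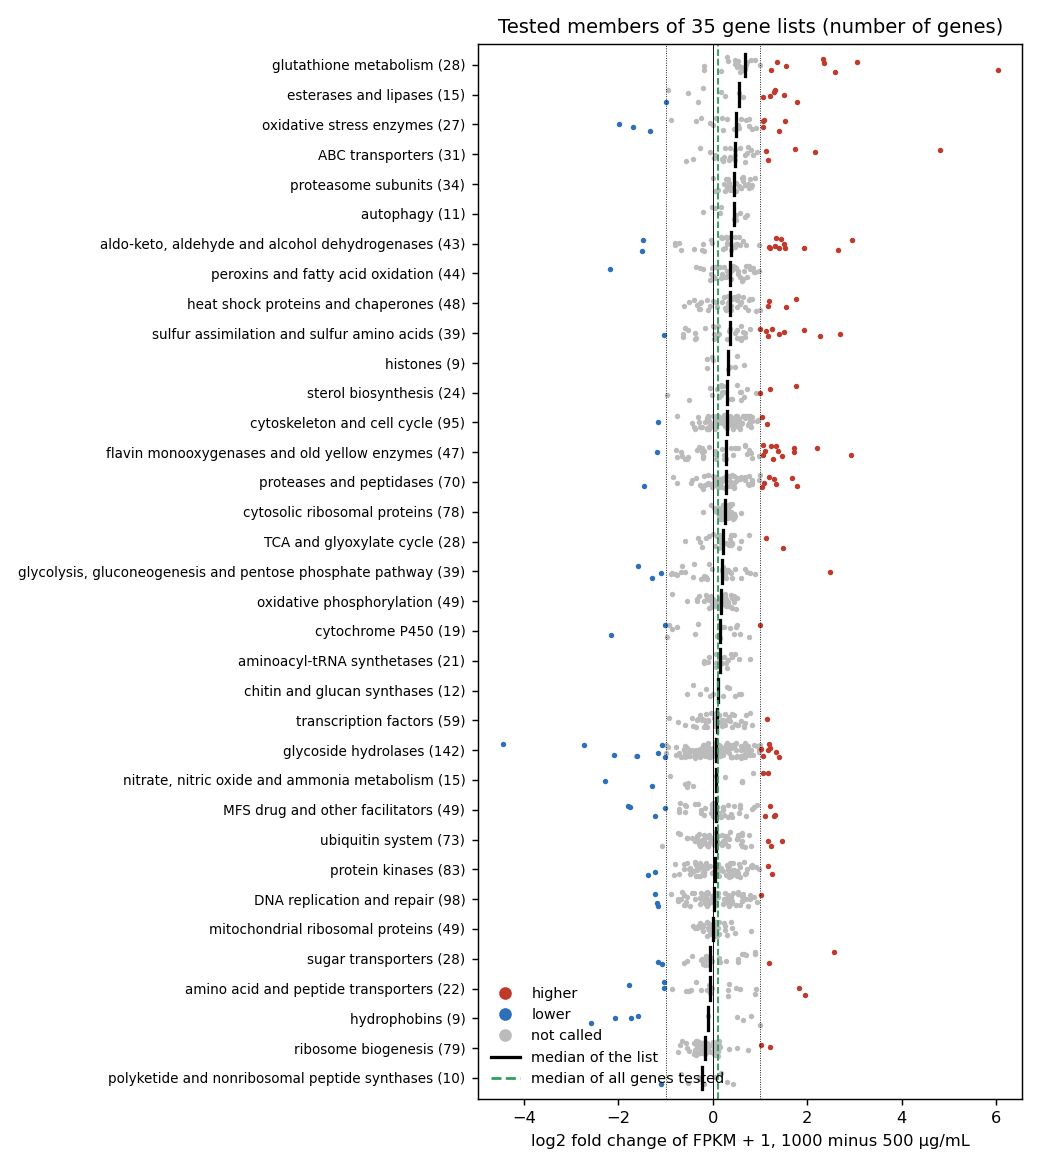
Each row is a gene list with its number of tested genes, each point a gene at its log2 fold change (1000 minus 500 µg/mL), red where it rose, blue where it fell and grey where it was not called; the black bar is the median of the list and the green dashed line the median of all 8965 genes (0.10). Glutathione metabolism has the highest median (0.68), proteasome subunits are grouped around 0.46 without a call, and the polyketide and nonribosomal peptide synthases have the lowest median (-0.22).

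Genes that bring sulfate into the cell and build cysteine from it rose at several steps. Of 39 tested genes of sulfur assimilation and sulfur amino acids 9 rose and 1 fell, with a median change of 0.36. At the entry, the sulfate transporter jgi_Trias1_149094 went from 7.23, 9.29 and 11.3 FPKM to 52.1, 87.3 and 59.4 FPKM, a change of 2.696 ± 0.23 (limma adjusted p = 0.00015). A second sulfate transporter, jgi_Trias1_135568, went from 21.1, 20.1 and 39.4 FPKM to 86.5, 152 and 77.1 FPKM. Both were separate between the doses, and at 100 µg/mL the second stood at 2.02 to 2.73 FPKM. In the reductive steps, phosphoadenosine phosphosulfate reductase (jgi_Trias1_138659) rose from 34.96, 41.1 and 43.0 FPKM to 94.6, 93.9 and 76.2 FPKM, and the flavoprotein subunit of sulfite reductase (jgi_Trias1_55307) from 39.7, 45.9 and 41.5 FPKM to 83.3, 108 and 98.5 FPKM. Sulfite oxidase (jgi_Trias1_30036), which turns sulfite back into sulfate, was the member that fell. It went from 51.4, 41.0 and 37.3 FPKM to 23.1, 18.4 and 20.1 FPKM, a change of -1.03 ± 0.17 (limma adjusted p = 0.0038), and this call was lost without replicate 1 of 500 µg/mL or replicate 2 of 1000 µg/mL.

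At the carbon side of the pathway, homoserine O-acetyltransferase, which activates homoserine for sulfur transfer, rose at jgi_Trias1_54984 by 1.51 and at jgi_Trias1_151072 by 1.0, and the latter call was lost in 7 limma alternatives and under the NOISeq rule. The cysteine synthase jgi_Trias1_459843 rose by 1.41 at under 7 FPKM. Cystathionine gamma-lyase (jgi_Trias1_61647), which releases cysteine from cystathionine, stood at 360, 389 and 609 FPKM and then at 1198, 1325 and 738 FPKM, a change of 1.26 (limma adjusted p = 0.01). Its doses were separate, though the call was lost without replicate 2 of 1000 µg/mL. The alkanesulfonate monooxygenase jgi_Trias1_296244, named for an enzyme of bacteria that frees sulfite from organic sulfonates, went from 1.68 to 3.43 FPKM to 11.6 to 18.7 FPKM. The most abundant member, adenylylsulfate kinase (jgi_Trias1_59716), was at 810.4, 1144 and 1089 FPKM and then at 892, 558 and 669 FPKM, and its doses overlapped (change -0.53, limma adjusted p = 0.0983).

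**Figure D4:**
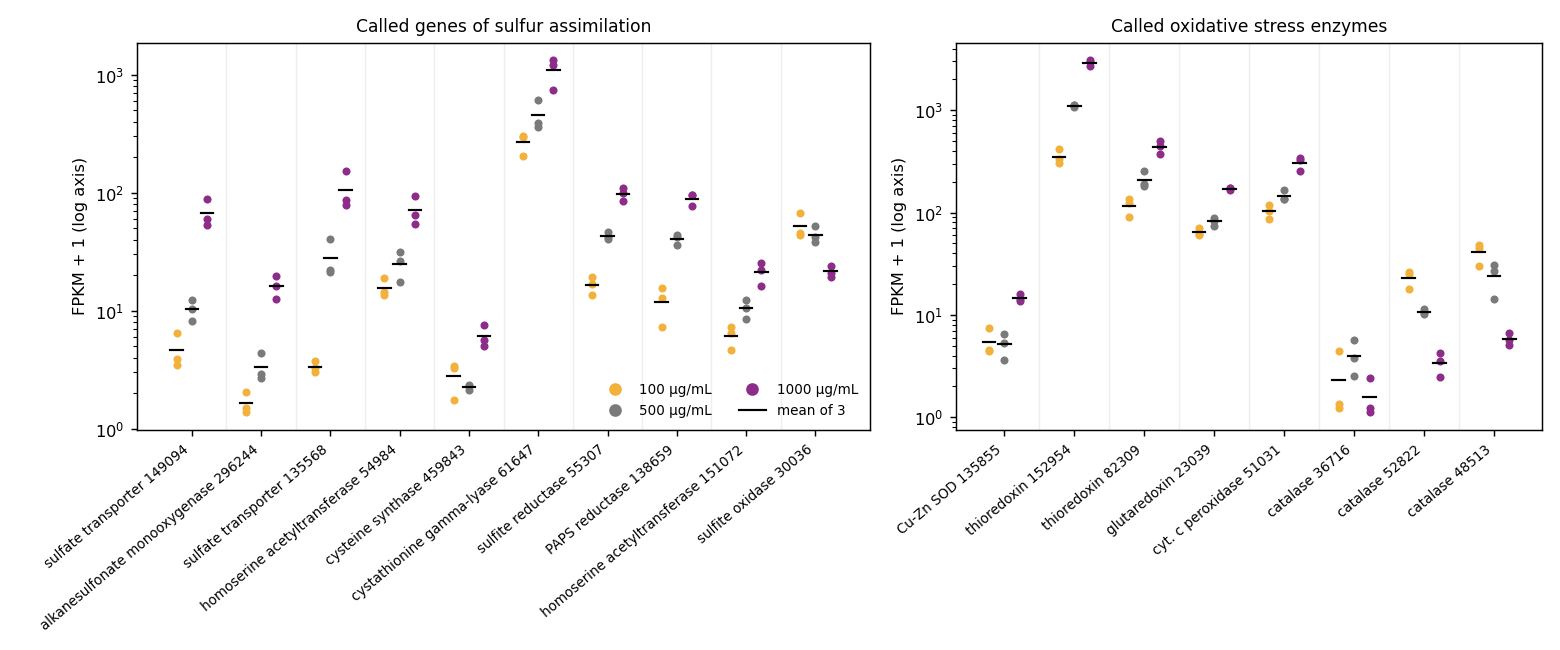
FPKM + 1 on a log axis for the 10 called genes of sulfur assimilation (left) and the 8 called oxidative stress enzymes (right), with a point per library, a bar for the mean of 3 libraries and colours for 100, 500 and 1000 µg/mL dichlorvos. Of the sulfur genes 9 rise and sulfite oxidase falls at 1000 µg/mL; thioredoxin jgi_Trias1_152954 goes from 1070 to 1126 FPKM at 500 µg/mL to 2709 to 3068 FPKM at 1000 µg/mL, while the 3 called catalases are lower.

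Enzymes against oxidative stress split by kind. Of 27 tested, 5 rose and 3 fell, and the falls were all catalases. Thioredoxin jgi_Trias1_152954, a small disulfide reductase and the most abundant member, stood at 1070, 1123 and 1126 FPKM at 500 µg/mL and at 2946, 3068 and 2709 FPKM at 1000 µg/mL, a change of 1.39 ± 0.15 (limma adjusted p = 0.000401). A second thioredoxin (jgi_Trias1_82309), a monothiol glutaredoxin (jgi_Trias1_23039) and cytochrome c peroxidase (jgi_Trias1_51031), which removes hydrogen peroxide in mitochondria, rose by 1.07 to 1.08. Those 3 calls were lost when the libraries were centred on their medians, and the first and last of them without replicate 2 of 1000 µg/mL, which left 3 rises. The falls numbered 1 with a pseudocount of 5 and 0 under the NOISeq rule. The Cu-Zn superoxide dismutase jgi_Trias1_135855 rose from 2.60, 5.57 and 4.37 FPKM to 14.9, 12.7 and 13.3 FPKM (change 1.54 ± 0.24, limma adjusted p = 0.00296). The more abundant Cu-Zn superoxide dismutase, jgi_Trias1_73190, chosen for its role, was at 424, 369 and 422 FPKM and then at 665, 859 and 664 FPKM, with separate doses and a change of 0.84 (limma adjusted p = 0.00603).

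Catalases, which split hydrogen peroxide without using up a thiol, were tested at 6 genes and catalase-peroxidases at 2 (jgi_Trias1_140270 and jgi_Trias1_197596). The catalase jgi_Trias1_48513 stood at 29.8, 26.01 and 13.3 FPKM at 500 µg/mL and at 4.14, 4.68 and 5.65 FPKM at 1000 µg/mL, a change of -1.98 ± 0.29 (limma adjusted p = 0.00192). The catalase jgi_Trias1_52822 went from 10.5, 9.16 and 9.60 FPKM to 3.21, 2.53 and 1.48 FPKM (change -1.69, limma adjusted p = 0.00187). Neither overlapped between the doses. The third, jgi_Trias1_36716, was below 5 FPKM in every library and lost its call in 9 limma alternatives and under the NOISeq rule. The most abundant catalase, jgi_Trias1_369646, had a change of -0.37 (limma adjusted p = 0.228) and jgi_Trias1_71163 one of -0.88 (limma adjusted p = 0.00674). The catalase-peroxidase jgi_Trias1_197596 stood at 46.0, 42.4 and 53.5 FPKM and then at 81.4, 86.8 and 75.5 FPKM, and its change of 0.77 (limma adjusted p = 0.00648) was below the threshold of 1.

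All 34 proteasome subunits had a change above 0 (33 after rescaling to TPM and 32 after centring each library on its median), with a median of 0.46. Of them 17 passed the adjusted p threshold of limma, 23 had an unadjusted p below 0.05, and none was called by limma or by the NOISeq rule. The most abundant subunit, the beta 4 subunit jgi_Trias1_164953, went from 122.9, 99.7 and 104 FPKM to 141, 137 and 145 FPKM (change 0.37, limma adjusted p = 0.0816). Among 48 heat shock proteins and chaperones 4 rose (8.3%, near the 7.17% of all genes tested) and none fell. Lower at an unadjusted limma p below 0.05 was 1 of the 48, and the NOISeq rule called none lower. The rises numbered 3 to 6 as single libraries were left out and 3 under the NOISeq rule. The 4 rises were the ClpB-type ATPases jgi_Trias1_48690 and jgi_Trias1_61928, which pull proteins out of aggregates, the Hsp40 partner jgi_Trias1_67819 and calnexin (jgi_Trias1_134384), a chaperone of the endoplasmic reticulum. Calnexin went from 67.0, 60.4 and 78.4 FPKM to 142, 194 and 137 FPKM (change 1.18, limma adjusted p = 0.0023). The most abundant gene of this list, the Hsp70 jgi_Trias1_80694, was at 4108, 4283 and 4914 FPKM and then at 6668, 5421 and 7311 FPKM, with separate doses and a change of 0.54 (limma adjusted p = 0.069). The list holds 1 of the 5 tested genes named HSP20, since the others matched above its e-value limit. Of these small heat shock proteins, which bind unfolding proteins without ATP, jgi_Trias1_53394 and jgi_Trias1_271370 rose by 1.67 and 1.09 and jgi_Trias1_44896 had a change of -1.14 (limma adjusted p = 0.00215), from 2113, 2185 and 2769.9 FPKM to 1166, 980.4 and 1044 FPKM. In the ubiquitin system 3 of 73 rose, 2 ubiquitin hydrolases and the ATG7-type activating enzyme jgi_Trias1_168695 of autophagy.

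None of 78 cytosolic ribosomal proteins was called and 76 had a change above 0 (75 on the TPM scale and 73 after centring), with a median of 0.26. Ribosome biogenesis factors lay on the other side, 54 of 79 below 0 (57 on the TPM scale and 64 after centring), with a median of -0.17, while 2 were called higher and none lower (12 were lower at an unadjusted limma p below 0.05). The list keeps the best match to each KEGG entry, and so leaves out jgi_Trias1_78678, a weaker match to ribosome biogenesis protein SSF1/2, which fell from 7.15, 9.32 and 8.61 FPKM to 0.37, 0.82 and 0.70 FPKM (change -2.53, limma adjusted p = 0.000228). Mitochondrial ribosomal proteins had a median of -0.0008 with 24 of 49 above 0, and 11 above 0 after centring, so no direction can be given for them. None of 21 aminoacyl-tRNA synthetases and 49 subunits of oxidative phosphorylation was called. At an adjusted p below 0.05 alone, 1 of the 78 ribosomal proteins, 1 of the 21 synthetases and 3 of the 49 respiratory subunits passed, against 15.1% of all genes above 0 and 8.14% below. At an unadjusted limma p below 0.05 these numbers were 8, 3 and 12, with 5 mitochondrial ribosomal proteins, and the NOISeq rule called none of these genes.

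Transaldolase (jgi_Trias1_73965), an enzyme of the non-oxidative pentose phosphate pathway, stood at 122, 139 and 195 FPKM at 500 µg/mL and at 683, 1050.2 and 802 FPKM at 1000 µg/mL. The doses were separate and the change was 2.47 ± 0.22 (limma adjusted p = 0.000175), the single rise among 39 genes of central sugar metabolism (3 rises without replicate 1 of 1000 µg/mL). Pyruvate decarboxylase (jgi_Trias1_43082), an enolase (jgi_Trias1_205633) and a probable phosphoglycerate mutase (jgi_Trias1_54193) fell, with changes of -1.59, -1.28 and -1.10, from at most 102 FPKM. The falls numbered 1 with a pseudocount of 5, 1 in the fit over all 12 libraries and 0 under the NOISeq rule. The call of jgi_Trias1_54193 was also lost without replicate 2 of 500 µg/mL or replicate 3 of 1000 µg/mL. Phosphoenolpyruvate carboxykinase (jgi_Trias1_132829), the most abundant gene of that list and the entry to gluconeogenesis, had a change of -0.26 (limma adjusted p = 0.302). Of 28 genes of the tricarboxylic acid (TCA) and glyoxylate cycles 2 rose and none fell (1 was lower at an unadjusted limma p below 0.05, and the NOISeq rule called none in either direction). The rises were 7.1% of this list, near the 7.17% of all genes tested. Both rises were annotated as the flavoprotein subunit of succinate dehydrogenase, which oxidises succinate to fumarate. The names rest on e-values of 3e-58 (jgi_Trias1_67943) and 8e-71 (jgi_Trias1_28403), and whether these genes have that role was not tested. The gene jgi_Trias1_67943 went from 16.9, 15.3 and 9.34 FPKM to 32.4, 31.3 and 27.7 FPKM, and jgi_Trias1_28403 from 0.86, 0.68 and 0.35 FPKM to 2.91, 3.36 and 4.56 FPKM. Their changes were 1.12 (limma adjusted p = 0.00743) and 1.4966 (limma adjusted p = 0.00524) with separate doses, and neither was called with a pseudocount of 5, nor the first without replicate 3 of 500 µg/mL. Isocitrate lyase (jgi_Trias1_22393), of the glyoxylate cycle, had a change of 0.17 (limma adjusted p = 0.47) at 3350.1 to 4213 FPKM over the 6 libraries. Of 44 peroxins and enzymes of fatty acid oxidation none rose (23 were higher at an unadjusted limma p below 0.05, and the NOISeq rule called none higher) and 1 fell, the 3-hydroxyacyl-CoA dehydrogenase jgi_Trias1_173738, from 103, 197 and 76.3 FPKM to 30.99, 24.98 and 19.3 FPKM (change -2.18 ± 0.32, limma adjusted p = 0.002). Of 24 genes of sterol biosynthesis 3 rose, led by the methylsterol monooxygenase jgi_Trias1_55398, from 16.8, 13.99 and 16.7 FPKM to 32.2, 73.4 and 74.7 FPKM (change 1.77, limma adjusted p = 0.00376).

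Of 15 genes of nitrate, nitric oxide and ammonia metabolism 2 rose and 2 fell, and neither rise held without replicate 2 of 1000 µg/mL. The fungal nitric oxide reductase jgi_Trias1_136021, a P450-type enzyme (P450nor) that reduces nitric oxide to nitrous oxide, stood at 686, 999 and 657 FPKM at 500 µg/mL and at 202, 132 and 142 FPKM at 1000 µg/mL. It fell by 2.29 ± 0.22 on the log2(FPKM + 1) scale (limma adjusted p = 0.000229) without overlap, and at 100 µg/mL it was at 1724 to 2275 FPKM. Nitrate reductase (jgi_Trias1_41338) fell by 1.29 from about 5 FPKM. The nitric oxide dioxygenase jgi_Trias1_62475, chosen for its role, was at 2092, 2579 and 2572 FPKM and then at 1527, 1351 and 1033 FPKM (change -0.90, limma adjusted p = 0.0102), below the threshold of 1. Glutamine synthetase (jgi_Trias1_61173), the main enzyme of ammonia assimilation and the most abundant of the list, was at 8470, 10064 and 8217 FPKM and then at 6321, 5168 and 6854 FPKM (change -0.55, limma adjusted p = 0.0726). Of 22 amino acid and peptide transporters 2 rose and 3 fell, and the oligopeptide transporter jgi_Trias1_150021, the most abundant of them, went from 1204, 843 and 396 FPKM to 171, 210.0 and 281 FPKM (change -1.77 ± 0.36, limma adjusted p = 0.00878). Without replicate 2 of 500 µg/mL 1 of the 3 falls was called, the amino acid transporters jgi_Trias1_52875 and jgi_Trias1_138581 losing theirs. Of 28 sugar transporters 2 rose and 2 fell (7.1% each, against 7.17% and 3.34% of all genes tested). The largest change was that of the alpha-glucoside carrier jgi_Trias1_138828, which rose by 2.57 ± 0.20 (limma adjusted p = 8.75e-05). The sugar transporters had no fall without replicate 3 of 500 µg/mL or replicate 2 of 1000 µg/mL and none in the fit over all 12 libraries, and their rises went from 1 without replicate 2 of 1000 µg/mL to 4 without replicate 3 of 500 µg/mL.

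Of the 9 tested hydrophobins, 4 fell (44.4%) and none rose, with 4 higher at an unadjusted limma p below 0.05 and none called higher by the NOISeq rule. Without replicate 1 of 1000 µg/mL 2 were called higher. The hydrophobin jgi_Trias1_54328 stood at 1080, 934 and 870.3 FPKM at 500 µg/mL and at 188, 138 and 158 FPKM at 1000 µg/mL, 5.95 times lower on average. It fell by 2.57 ± 0.16 on the log2(FPKM + 1) scale (limma adjusted p = 2.98e-05). The hydrophobin jgi_Trias1_57894 went from 662, 635 and 579 FPKM to 188, 147 and 118 FPKM (change -2.07, limma adjusted p = 0.000175), and the trihydrophobin jgi_Trias1_60885, which carries several hydrophobin units in one protein, from 779, 659 and 505 FPKM to 229, 223 and 191 FPKM (change -1.58, limma adjusted p = 0.000632). In these 3 genes the doses were well apart, and the levels at 100 µg/mL lay between 907 and 2154 FPKM, above those at 500 µg/mL. The fourth, jgi_Trias1_320233, was listed at 0 in 2 libraries of 1000 µg/mL, overlapped between the doses and lost its call in 8 limma alternatives and under the NOISeq rule.

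The most abundant hydrophobin was higher at 1000 µg/mL without passing the test. The gene jgi_Trias1_54184 stood at 17807, 16302 and 13470.5 FPKM at 500 µg/mL and at 24209, 23825 and 25197 FPKM at 1000 µg/mL. The doses did not overlap, and the change of 0.63 ± 0.21 missed the p threshold (limma adjusted p = 0.057). Because of it the summed FPKM of the 9 genes was higher at 1000 µg/mL, at 34471 on average against 27650, although the median change of the list was -0.11. The hydrophobins jgi_Trias1_144631 and jgi_Trias1_59451 passed the p threshold with changes of 0.9955 and 0.81, under the threshold of 1.

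**Figure D5:**
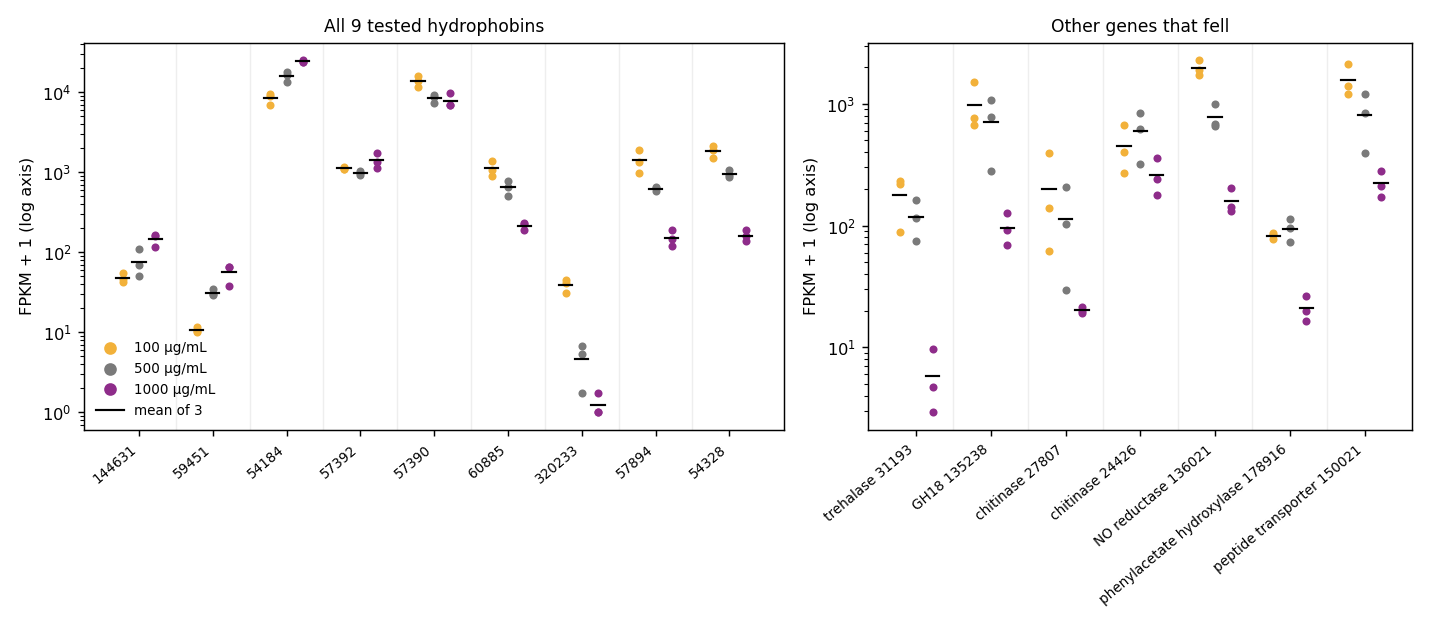
FPKM + 1 on a log axis for the 9 tested hydrophobins (left, in the order of their change) and 7 other genes that fell (right), with a point per library, a bar for the mean of 3 libraries and colours for 100, 500 and 1000 µg/mL dichlorvos. The hydrophobin jgi_Trias1_54328 goes from 870.3 to 1080 FPKM at 500 µg/mL to 138 to 188 FPKM at 1000 µg/mL, while jgi_Trias1_54184 goes from 13470.5 to 17807 FPKM to 23825 to 25197 FPKM.

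Glycoside hydrolases moved both ways, 7 up and 7 down of 142 tested (4.9% each), with the larger changes among the falls. Among the 7 falls, jgi_Trias1_55660 at -1.07, entered the list through its closest protein match, a family 5 glycoside hydrolase, while its first KEGG entry is a yeast amino acid transporter. The trehalase jgi_Trias1_31193, which splits the storage sugar trehalose, showed the largest fall of all annotated genes. It stood at 73.5, 115 and 161 FPKM at 500 µg/mL and at 8.71, 1.92 and 3.72 FPKM at 1000 µg/mL. The mean was 24.3 times lower, with a change of -4.45 ± 0.42 (limma adjusted p = 0.000228). The family 18 protein jgi_Trias1_135238, of the family that holds the fungal chitinases, went from 1077, 778 and 281 FPKM to 90.2, 68.1 and 126 FPKM (change -2.74 ± 0.44, limma adjusted p = 0.00298). The doses were separate in both. The chitinases jgi_Trias1_27807 and jgi_Trias1_24426 had changes of -2.09 and -1.154, and each lost its call in 4 of the 6 fits without 1 library. In the genes jgi_Trias1_135238, jgi_Trias1_27807 and jgi_Trias1_24426 replicate 3 of 500 µg/mL was the lowest of its dose, and in jgi_Trias1_27807 it was at 28.4 FPKM against 207 and 102. The rises were smaller, 1.02 to 1.40, and led by the glucoamylase jgi_Trias1_151475 from under 2 FPKM. The list had 4 rises without replicate 2 of 1000 µg/mL and 13 without replicate 1, and its falls ranged from 4 without replicate 2 of 1000 µg/mL to 9 without replicate 3 of 500 µg/mL. None of 12 chitin and glucan synthases was called by limma or the NOISeq rule, and 3 had an unadjusted limma p below 0.05.

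Of 70 tested proteases 7 rose and 1 fell, to be read against 7.17% and 3.34% of all genes tested. The rises numbered 4 without replicate 2 of 500 µg/mL, 3 with a pseudocount of 5 and 0 under the NOISeq rule. The rises were at low to moderate levels, such as the aspergillopepsin jgi_Trias1_59981, a secreted aspartic protease, which went from 21.0, 17.5 and 31.1 FPKM to 59.8, 61.3 and 54.2 FPKM. The aspergillopepsin that fell, jgi_Trias1_178003, was more abundant, at 346, 337 and 156 FPKM and then at 97.2, 85.9 and 101 FPKM (change -1.47 ± 0.28, limma adjusted p = 0.0064). The most abundant protease, the subtilisin-type cerevisin jgi_Trias1_62460, stayed between 2581 and 2745 FPKM in all 6 libraries (change 0.05, limma adjusted p = 0.834). Both aspergillopepsins named here were separate between the doses.

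Regulators and DNA repair held few calls. The protein kinase A catalytic gene jgi_Trias1_275322 went from 97.2, 120.1 and 94.3 FPKM to 52.5, 30.3 and 38.5 FPKM (change -1.37 ± 0.21, limma adjusted p = 0.0024). Its regulatory subunit jgi_Trias1_126329 went from 1114, 1248 and 652 FPKM to 492, 301 and 480.1 FPKM (change -1.22 ± 0.27, limma adjusted p = 0.0131). Both parts of this cAMP-dependent kinase were thus lower in every library at 1000 µg/mL, though the call of the regulatory subunit was lost without replicate 2 of either dose. Without replicate 3 of 500 µg/mL 5 kinase genes fell. Of the 83 tested protein kinase genes 2 others rose, the kinase jgi_Trias1_193625 by 1.26 and jgi_Trias1_259843 by 1.17. The second is named by KEGG as a mitogen-activated protein kinase kinase at an e-value of 9e-17. Both calls were lost under the NOISeq rule. Of 98 genes of DNA replication and repair 1 rose, the large subunit of ribonucleotide reductase (jgi_Trias1_370372), by 1.03, and 3 fell, a cryptochrome or photolyase-family gene (jgi_Trias1_187610), the mismatch repair gene MSH6 (jgi_Trias1_60842) and DNA ligase 4 (jgi_Trias1_250435), with changes of -1.22, -1.18 and -1.16. The rise was 1.0% and the falls 3.1% of this list, against 7.17% and 3.34% of all genes tested. Of 59 transcription factors 1 rose, and of 95 genes of the cytoskeleton and cell cycle 2 rose and 1 fell. The gene that fell, jgi_Trias1_154066, is named beta-tubulin at an e-value of 1e-40, so its name is uncertain. Without replicate 3 of 500 µg/mL the cytoskeleton list had 4 rises and no fall, and the rise in the DNA list was lost without replicate 2 of either dose. None of 9 histones and 11 autophagy genes was called by limma or the NOISeq rule, with 3 and 6 of them at an unadjusted limma p below 0.05. Of 10 tested polyketide and nonribosomal peptide synthase genes 1 fell, jgi_Trias1_40049, from under 3 FPKM. Its first KEGG entry is a cysteine desulfurase and its place in the list comes from its closest protein match, and the call was lost in 7 limma alternatives and under the NOISeq rule.

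Outside these lists, several of the 20 annotated genes with the largest changes carried names from distant matches, and 9 of the 18 named by KEGG had an e-value above 1e-20. Their names are therefore uncertain. The gene jgi_Trias1_155328, named lactoylglutathione lyase (the glutathione-dependent first enzyme of methylglyoxal removal) at an e-value of 8e-10, stood at 136, 102 and 116 FPKM at 500 µg/mL and at 909, 1316 and 1092 FPKM at 1000 µg/mL. It rose by 3.21 ± 0.18 (limma adjusted p = 1.65e-05) with separate doses, from 4.98 to 8.03 FPKM at 100 µg/mL. The gene jgi_Trias1_29615, named NADPH-dependent methylglyoxal reductase at 1e-32, went from 10.7, 10.04 and 10.96 FPKM to 89.9, 120.3 and 101 FPKM (change 3.17 ± 0.16, limma adjusted p = 1.35e-05). Its level at 500 µg/mL was above the 5.35 to 6.92 FPKM at 100 µg/mL. The means were 6.04, 10.6 and 104 FPKM at 100, 500 and 1000 µg/mL, so that most of its rise lay between the higher doses. The alcohol dehydrogenase jgi_Trias1_80446 (8e-16) went from 7.52, 7.18 and 5.47 FPKM to 84.5, 122 and 140 FPKM, a change of 3.89 ± 0.21 (limma adjusted p = 1.63e-05).

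Further rises with weak names were jgi_Trias1_179017 (semialdehyde dehydrogenase, 6e-07, change 3.61) and jgi_Trias1_52814 (a nascent polypeptide-associated complex subunit, 2e-11, change 2.95). Better matched were jgi_Trias1_81301 (3-methylcrotonyl-CoA carboxylase, 3e-37, change 3.18) and jgi_Trias1_29651 (a HIRA-type histone chaperone, 8e-66, change 3.03). Among the falls, jgi_Trias1_201082, named tRNA pseudouridine synthase 9 at 5e-21, was abundant, at 414, 317 and 142 FPKM and then at 22.7, 17.7 and 32.3 FPKM (change -3.44 ± 0.36, limma adjusted p = 0.000401). The others with names from KEGG were jgi_Trias1_149611 (LEU3-type regulator, 2e-06, -3.42), jgi_Trias1_247104 (a CoA-transferase, 2e-18, -3.15), jgi_Trias1_78678 (ribosome biogenesis protein SSF1/2, 2e-84, -2.53), jgi_Trias1_91744 (an aldolase, 8e-18, -2.52), jgi_Trias1_148717 (an epoxide hydrolase, 4e-11, -2.45) and jgi_Trias1_62818 (D-lactate dehydrogenase, 4e-10, -2.39). All of these genes were separate between the doses by the rule that chose them. The rise of jgi_Trias1_52814 was from under 5 FPKM and the fall of jgi_Trias1_78678 to under 1 FPKM.

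Genes without an annotated function also held large changes. The gene jgi_Trias1_57875 went from 0.91, 1.46 and 0.75 FPKM to 36.7, 54.2 and 35.9 FPKM (change 4.40 ± 0.23, limma adjusted p = 1.63e-05). The gene jgi_Trias1_179950 went from 38.7, 42.0 and 54.6 FPKM to 537, 630 and 539 FPKM (change 3.64 ± 0.16, limma adjusted p = 1.05e-05), after at most 1.12 FPKM at 100 µg/mL. Both were far apart between the doses. The 2 largest falls of this kind, jgi_Trias1_455253 and jgi_Trias1_27584, had changes of -2.59 ± 0.58 (limma adjusted p = 0.0127) and -2.40 ± 0.57 (limma adjusted p = 0.0169). In both, replicate 3 of 500 µg/mL was far below the other libraries of its dose, at 33.4 FPKM against 199 and 135 in jgi_Trias1_455253 and at 422 FPKM against 2198 and 1426 in jgi_Trias1_27584, and both calls were lost without replicate 2 of either dose.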

How the data were processed

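The authors sequenced total RNA of 12 libraries and deposited 1 FPKM value per gene and library, made with the JGI Trias1 genome as reference. The submitters' processing notes name BWA, Bowtie and RSEM, without versions. FPKM carries neither read counts nor depth, so no count test was run and no counting intervals are given. The 6 libraries of 500 and 1000 µg/mL were tested with limma 3.58.1 (R 4.3.3, intensity trend) on log2(FPKM + 1), for genes whose mean reached 1 FPKM, and p-values were adjusted by Benjamini-Hochberg over all 8965 genes. A gene was called at an adjusted p below 0.05 and a change of more than 1. The replicate numbers did not pair the libraries. An exact permutation test of 3 against 3 libraries cannot go below 0.1, so none was used.

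A gene's function is its first KEGG entry or its closest protein match, as deposited, and lists were made from that wording with limits on the e-value and, for single-copy machinery such as the proteasome, ribosome and respiratory chain, only the best match to each KEGG entry. Names of list members can also rest on distant matches, such as 1e-36 for jgi_Trias1_140627 and 2e-46 for jgi_Trias1_166239. The 36 lists tried gave 35 with members, none being found for conidiation. Members and lists were chosen with earlier results of these data known. Named genes were the 10 largest rises and falls among called annotated genes with FPKM above 0 and separate doses, the largest called rise and fall and the most abundant member of each list, and the 2 largest rises and falls without an annotated function. Other genes are named by role, as called list members, or after their values were seen, as stated for each. On data simulated for this comparison (8965 genes), 87% of genes changed by 1.5 and 96% of those changed by 2 on the log2 scale were recovered, with 6 false calls. Recovery of genes at low FPKM was not tested on its own, so these rates are not given for calls at a few FPKM. No gene identifier matched the RefSeq table, and sequences and coordinates were not used here. The 17 alternatives covered pseudocount, filter, scaling, block, fits with more libraries, trend, each library left out, and the study's NOISeq rule, rewritten in Python 3.11.15.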

Additional observations from a re-analysis of the deposited data

How the results depend on the processing

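The counts of 643 rises and 299 falls stayed within 1.5 times under all alternatives but those named next, and no called gene among those named reversed its direction under any of the 17, while 5 named genes with changes near 0 that were not called had another sign in 1 or 2 of them. A pseudocount of 5 gave 323 rises and 170 falls, the NOISeq rule 181 and 117 (of which 181 and 111 were among the limma calls), and a fit over all 12 libraries 507 rises and 191 falls. Leaving out 1 library at a time gave 448 to 720 rises and 201 to 344 falls, the lowest counts coming without replicate 2 of 1000 µg/mL for rises and without replicate 2 of 500 µg/mL for falls. With the replicate number as a block (replicate block) there were 605 rises and 277 falls. Libraries with the same number did not deviate together (r between -0.309 and -0.151 over genes), and none correlated best with its own number. Of 163 called list members and named genes, 105 kept the call in every fit that left out 1 library, 65 in every limma alternative, and 96 lost it under the NOISeq rule. Since FPKM carries no depth, genes under about 1 FPKM rest on unknown numbers of reads.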

Other observations

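The genes below were looked up after their values were seen, and, apart from jgi_Trias1_90947 of the glutathione list, they belong to no list above. Counts of rises within these families follow from that choice and are no result about the families. Of all genes tested, 7.17% rose. Of the 3 tested genes annotated as methylated-DNA-protein-cysteine methyltransferase, the family whose best known member removes methyl groups from guanine in DNA, 2 rose. The gene jgi_Trias1_61459 stood at 613, 874 and 1618 FPKM at 500 µg/mL and at 3572, 2647 and 2886 FPKM at 1000 µg/mL (change 1.66, limma adjusted p = 0.00633), after 29.7 to 42.3 FPKM at 100 µg/mL. The gene jgi_Trias1_57955 went from 10.7, 15.05 and 9.58 FPKM to 30.7, 43.7 and 34.2 FPKM (change 1.55, limma adjusted p = 0.00148). Both were separate between the doses, while jgi_Trias1_142887, with 17.2 to 23.5 FPKM at 1000 µg/mL, had a change of 0.17 (limma adjusted p = 0.569).

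Protein disulfide isomerases, which form and shuffle disulfide bonds of proteins in the endoplasmic reticulum, rose at 3 of 6 tested genes (7.17% of all genes tested rose). This family, too, was looked up after its values were seen. The largest rise was that of jgi_Trias1_51030, from 23.9, 20.1 and 23.2 FPKM to 93.8, 112 and 75.3 FPKM (change 2.0, limma adjusted p = 0.000177). The genes named selenocysteine lyase, jgi_Trias1_199110 and jgi_Trias1_38892, rose by 2.697 and 2.06, the first from 59.6 to 81.1 FPKM to 395 to 597 FPKM. A second gene named lactoylglutathione lyase at a weak match (1e-07), jgi_Trias1_44730, went from 30.8, 23.2 and 38.1 FPKM to 139.6, 180.2 and 135 FPKM, whereas the gene with the close match (1e-177), jgi_Trias1_90947, went from 31.2, 26.2 and 26.8 FPKM to 37.8, 43.4 and 39.6 FPKM with a change of 0.51 (limma adjusted p = 0.0377). The gene jgi_Trias1_57246, named carboxyvinyl-carboxyphosphonate phosphorylmutase at 1e-41, stood at 661, 689 and 901 FPKM and then at 4091, 5643 and 4442 FPKM (change 2.65, limma adjusted p = 6.73e-05). At 100 µg/mL it stood at 22.5 to 25.7 FPKM.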
